A study of Bos taurus with 17 samples.

Results

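The cyclic GMP system of bovine cumulus cells was followed through 10 genes, from the peptide ligand to the kinases that read the nucleotide: NPPC, NPR2, NPR3, NOS2A, GUCY1A3, GUCY1B3, PDE5A, PDE9A, PRKG1 and PRKG2. Members were the probes of the bovine Agilent array whose gene name was one of these symbols, or whose description named the gene where the name was a locus number or a sequence tag. The 10 genes were among 19745 gene or transcript names on the array. They had 13 of its 21475 non-control probes, and 7 of these (6 genes) were valid, that is, detected in 80% or more of the replicates at each of the 3 stages, as 13865 probes were.

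Cumulus cells, which surround the oocyte in the follicle, were compared at 3 stages on 17 one-colour arrays. NC1 cells came from small antral follicles of 6 prepubertal calves aged 3 to 6 months, and enclosed oocytes arrested in prophase I whose developmental competence was absent or poor. C1 cells were collected in the same way, by aspiration post mortem, from 6 adult cows of different ages, and enclosed prophase I oocytes that were developmentally competent. C2 cells came from 5 adult, non-lactating Holstein cows aged 3 to 5 years, superovulated with gonadotropins under progestagen and prostaglandin treatment. They were taken by ovum pick-up from large pre-ovulatory follicles and enclosed metaphase II oocytes. Oocyte stage, cumulus expansion, follicle size, hormone treatment, mode of collection and source of the animals therefore change together between C1 and C2. They cannot be told apart, and neither can age and competence between NC1 and C1. C2 and NC1 differ in all of these, calf against adult included.

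Cyclic GMP made in the somatic cells of the follicle passes through gap junctions into the oocyte, where it inhibits the breakdown of cyclic AMP and so keeps meiosis arrested. The nucleotide is made by membrane receptors of the natriuretic peptide family and by a soluble cyclase that responds to nitric oxide, and it is broken down by phosphodiesterases. The surge of luteinizing hormone that triggers ovulation lowers cyclic GMP in the follicle, and meiosis resumes.

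Values are log2 signals with the median of each array set to 0, so that 1 unit is a 2-fold difference in signal. The precision is limited by the number of arrays, and between 66.2% and 82.8% of the probes of an array were well above background. Arrays of C2 fell apart from each other. The SD of the log2 differences over the valid probes was 0.44 between C2 replicates 1 and 5 and 0.51 between replicates 3 and 4, and it lay between 1.05 and 1.27 for the other 8 pairs, while the largest value was 0.69 within NC1 and 0.76 within C1. The labels give the source as ovarian follicles. All 5 cumulus expansion markers were measured in every stage, and 4 of them rose from C1 to C2, whereas 5 of the 7 measurable cumulus and granulosa markers fell. Over all valid probes 15.3% rose and 12.8% fell. All 9 cumulus and granulosa markers with a probe were well above background on at least 1 array of each stage.

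The probes that carry the results are 60 bases long and are shown as the deposited table gives them, so that what each value measured can be traced. Sequences were at hand for 8 of the 13 probes. No base is in capitals, because no motif was searched.

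NPR2: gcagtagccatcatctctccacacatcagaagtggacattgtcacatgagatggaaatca

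NPR3: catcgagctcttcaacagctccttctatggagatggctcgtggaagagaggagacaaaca

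NOS2A: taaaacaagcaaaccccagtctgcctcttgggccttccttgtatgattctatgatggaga

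GUCY1A3, probe 1: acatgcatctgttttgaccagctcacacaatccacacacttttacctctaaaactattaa

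GUCY1A3, probe 2: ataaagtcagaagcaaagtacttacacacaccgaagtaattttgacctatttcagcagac

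PDE5A, probe 1: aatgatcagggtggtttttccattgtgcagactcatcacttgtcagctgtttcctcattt

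PDE9A: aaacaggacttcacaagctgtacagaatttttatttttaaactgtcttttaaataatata

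The 2 GUCY1A3 probes shared no run longer than 8 bases and so read different stretches of the transcript. The PDE9A probe had a GC content of 23.3%, and 0.374% of the 15256 probes with a sequence had less. The median GC content was 43.3%, and the other 7 member probes lay between 36.7% and 50%.

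From C1 to C2 the natriuretic peptide receptor NPR2 and the nitric oxide synthase NOS2A fell 4.05-fold and 13.5-fold. The phosphodiesterases PDE5A and PDE9A rose 65.7-fold and 3.32-fold, and the probes of the soluble cyclase subunits GUCY1A3 and GUCY1B3 did not pass the threshold. In limma, with a Benjamini-Hochberg adjusted p under 0.01 over all valid probes, 4 of the 7 probes were called in C2 against C1, where 28.1% of all valid probes were called. The same 4 probes were called in C2 against NC1, beside 28.1% of all valid probes, and 0 of the 7 in C1 against NC1, beside 0.0577%. In that last comparison 0 of the 7 had an unadjusted p under 0.05 in limma, beside 1365 of the 13865 valid probes. The one-factor test without moderation also called 0 of the 7, beside 2 of all valid probes. The arrays of C2 overlapped with those of neither other stage for these 4 probes, as was so for 21.6% of all valid probes against C1 and for 20.9% against NC1. Both comparisons share the C2 arrays. The summed log2 signal of the 8 oocyte markers with a probe ranged from 5.70 to 6.95 at NC1, from 2.32 to 5.60 at C1 and from 1.72 to 2.95 at C2. Of these markers, 3 were measurable, and 3 of 3 fell from NC1 to C2, while 0 of 3 were called in C2 against C1 or in C1 against NC1. Between C1 and NC1 the log2 difference was -2.81 for GDF9 (limma adjusted p = 0.0177) and -1.91 for ZP3 (0.0133). For NLRP5 it was -2.13 (adjusted p = 0.186). From NC1 to C2, 12.6% of all valid probes fell. BMP15, ZP2, ZAR1 and DDX4 were well above background on no C2 array. The part of oocyte RNA in the differences between stages was not tested.

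**Figure D1:**
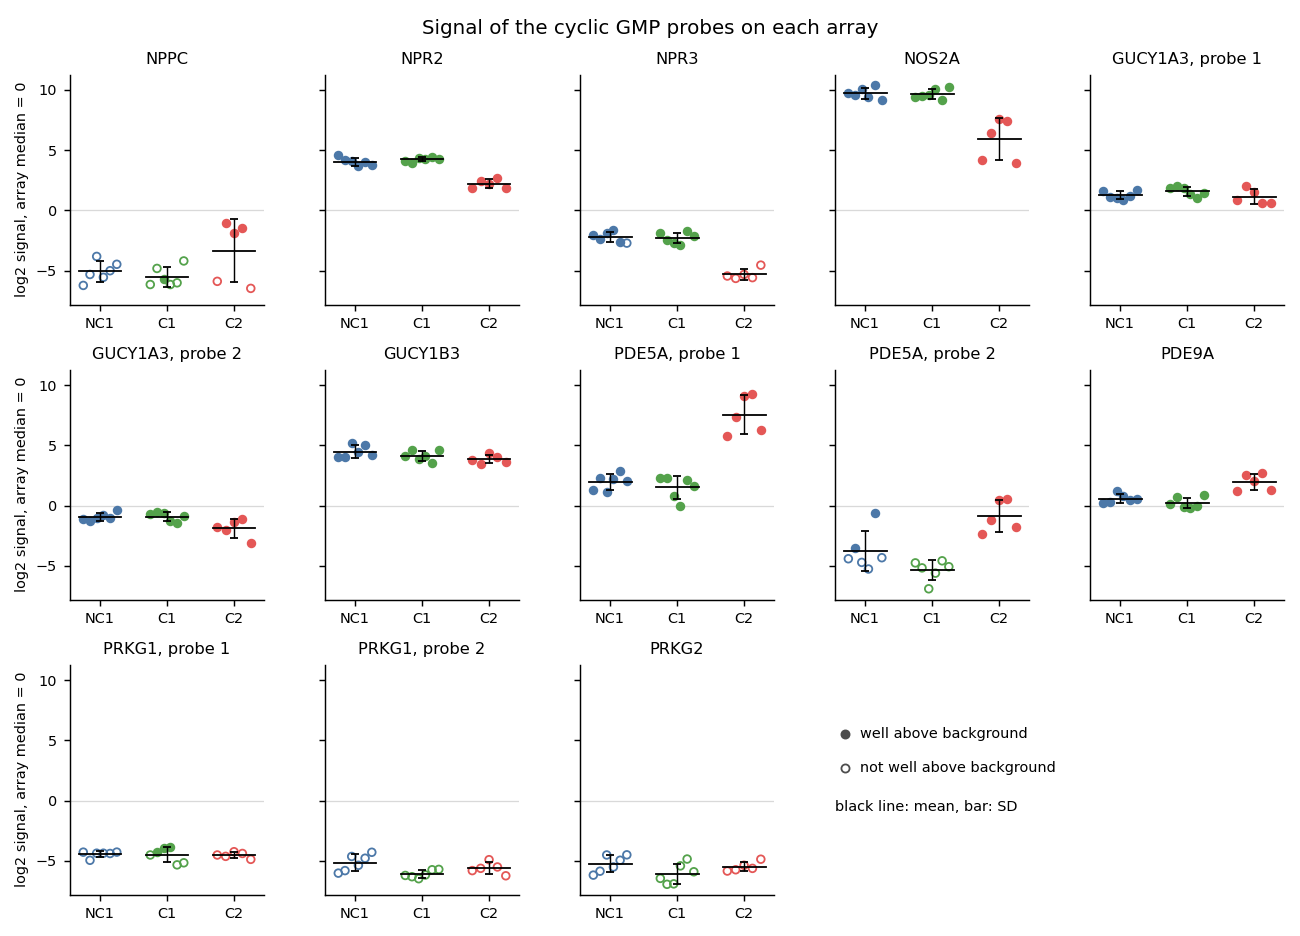
Log2 signal (array median 0) of the 13 probes on every array, by stage (NC1 n = 6, C1 n = 6, C2 n = 5). Points are arrays, filled where the probe was well above background and open where it was not, with the mean and SD in black. NPR2, NPR3 and NOS2A lie lower and PDE5A and PDE9A higher at C2, and the PRKG1 and PRKG2 probes lie near background.

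The ligand came first. NPPC encodes the C-type natriuretic peptide, which mural granulosa cells secrete and which activates NPR2 on cumulus cells. Its probe was not well above background on any NC1 array, and C1 replicate 3 was the 1 array of 6 at C1 where it was, on 1 of the 2 spots of the probe and at a mean log2 signal of -5.69, below the -4.61 that was the lowest on that array among probes with every spot well above background. At C2 its log2 signal was -5.88, -1.01, -1.83, -1.46 and -6.47 in replicates 1 to 5.

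NPPC was therefore well above background in C2 replicates 2, 3 and 4 and near background in replicates 1 and 5. The log2 difference between C2 and C1 was 2.17 (SE 0.85), with an adjusted p of 0.0574 in limma over all 21475 probes and p = 0.108 in a 2-sided exact permutation test. Against NC1 the adjusted p was 0.139. No fold is given, because the C2 mean of -3.33 lay below the lowest signal well above background at NC1, taken per array over probes with every spot well above background, which averaged -3.01.

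NPR2, the receptor guanylate cyclase for this peptide, fell about 4-fold. Its log2 signal ranged from 3.68 to 4.57 at NC1 (median 4.04) and from 3.94 to 4.42 at C1 (median 4.28). At C2 it was 1.90, 2.42, 2.18, 2.73 and 1.87 in replicates 1 to 5. Every C2 array lay below every array of the other stages, with replicate 4 the highest of the C2 arrays and replicates 1 and 5 the lowest.

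The log2 difference of NPR2 was -2.02 (SE 0.19, 95% interval -2.42 to -1.61) between C2 and C1, a 4.05-fold lower signal, with a limma adjusted p of 1.99e-07. Against NC1 it was -1.82 (SE 0.19), 3.54-fold lower, with an adjusted p of 7e-07. In a 2-sided exact permutation test p was 0.00433 in both, which is the lowest value possible with 5 and 6 arrays. Within the first scan day the difference to C1 was -2.22 and within the second it was -1.74. In these bulk samples a lower signal can come from fewer cells of a type or from less RNA per cell, and the 2 cannot be told apart. Of 9 granulosa and cumulus markers, 7 were measurable, and 5 of these fell from C1 to C2 while 0 rose, with a median log2 difference of -2.14. Over all valid probes 12.8% fell and 15.3% rose, with a median of 0.02. FOXL2, FSHR, AMH, FST and CYP19A1 fell, and INHA (-0.29, adjusted p = 0.449) and INHBA (-1.49, adjusted p = 0.0378) did not pass the threshold. KITLG, which was not measurable by the filter, had a mean of -4.09 at C1 and 0.94 at C2. The summed log2 signal of the 9 markers ranged from 11.8 to 13.1 at NC1, from 11.9 to 12.4 at C1 and from 10.2 to 12.1 at C2, and their part in the result was not tested.

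NPR3, the clearance receptor that binds natriuretic peptides and removes them without making cyclic GMP, was detected before maturation and not at C2. Its log2 signal ranged from -2.71 to -1.65 at NC1 (median -2.22), well above background on 5 of 6 arrays. At C1 it ranged from -2.84 to -1.71 (median -2.27), and all 6 arrays were well above background. At C2 it was -5.44, -5.64, -5.31, -5.58 and -4.54, and no array was well above background.

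NPR3 thus failed the filter on valid probes, and its comparison rests on the fit over all probes, where 21.2% were called in C2 against C1 and 20.5% in C2 against NC1. Taken against the lowest signal well above background on each C2 array, the C2 signal of NPR3 was at least 2.36-fold lower than that of C1 and at least 2.48-fold lower than that of NC1. These folds set the mean of all arrays of the brighter stage against the mean of the dim stage, each dim array taken at that lowest signal or at its own value where that was higher. The measured log2 differences were -3.02 from C1 and -3.09 from NC1, with limma adjusted p-values of 1.23e-07 and 1.04e-07. These p-values belong to the measured values and not to the bounds. With a normexp background correction the log2 difference to C1 shrank from -3.02 to -0.44 and the adjusted p was 0.0715. Against NC1 it shrank from -3.09 to -0.68, with an adjusted p of 0.00558 in limma. Both are smaller than the bounds, which thus hold for the main processing only.

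In the nitric oxide branch, NOS2A fell and the other measurable synthase, NOS3, did not pass the threshold. NOS2A, the inducible nitric oxide synthase, had a log2 signal from 9.16 to 10.42 at NC1 (median 9.67) and from 9.17 to 10.22 at C1 (median 9.56). At C2 it was 4.20, 6.45, 7.56, 7.45 and 3.94 in replicates 1 to 5. All C2 arrays lay below those of NC1 and C1, and replicates 1 and 5 lay well below the other three.

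The log2 difference of NOS2A was -3.75 (SE 0.55, 95% interval -4.90 to -2.61) between C2 and C1, a 13.5-fold lower signal, with a limma adjusted p of 2.52e-05. Against NC1 it was -3.82 (SE 0.55), 14.1-fold lower, with an adjusted p of 2.16e-05. The exact permutation p was 0.00433 in both. The size depended on the C2 arrays, being -4.74 against C1 within the first scan day and -2.23 within the second. In a pairwise test that allows unequal spreads the adjusted p was 0.0354 against C1 and 0.0336 against NC1, above the threshold.

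GUCY1A3 and GUCY1B3 encode the alpha and beta subunits of the soluble guanylate cyclase, the receptor of nitric oxide, which works as a dimer of the subunits. GUCY1B3 ranged from 4.00 to 5.21 at NC1 (median 4.34) and from 3.57 to 4.65 at C1 (median 4.09), and at C2 it was 3.82, 3.47, 4.34, 4.00 and 3.61. The C2 values overlapped those of both other stages. Its log2 difference was -0.30 (95% interval -0.85 to 0.25, adjusted p = 0.389 in limma) against C1 and -0.64 (-1.19 to -0.09, adjusted p = 0.0599) against NC1.

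The first GUCY1A3 probe (A_73_109957) ranged from 0.88 to 1.72 at NC1 (median 1.14) and from 1.04 to 2.02 at C1 (median 1.63), and at C2 it was 0.91, 2.01, 1.51, 0.60 and 0.62. C2 arrays lay both among and below the others. The log2 difference was -0.47 (-1.02 to 0.08, adjusted p = 0.165 in limma) against C1 and -0.12 (-0.67 to 0.43, adjusted p = 0.753) against NC1.

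The second GUCY1A3 probe (A_73_116819) ranged from -1.25 to -0.34 at NC1 (median -1.04) and from -1.42 to -0.53 at C1 (median -0.80), and at C2 it was -1.76, -2.04, -1.36, -1.15 and -3.12. C2 replicates 1, 2 and 5 lay below all arrays of the other stages, replicate 5 furthest, while replicate 3 lay within the range of C1 and replicate 4 within that of both. The log2 difference was -0.98 (SE 0.29) against C1, with a limma adjusted p of 0.0123, and -0.95 against NC1, with an adjusted p of 0.0147. With a normexp background correction the differences were -0.43 (adjusted p = 0.0407) and -0.50 (adjusted p = 0.0159), and within the second scan day -0.44 (adjusted p = 0.29) and -0.52 (adjusted p = 0.233). Without C2 replicate 4 they became -1.16 (adjusted p = 0.0046) and -1.13 (adjusted p = 0.00569), past the threshold. Against C1 the threshold was also passed without C2 replicate 3 (-1.11) and without C1 replicate 5 (-1.08). The difference between the 2 GUCY1A3 probes was not tested.

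Both phosphodiesterases among the members rose, PDE5A by the larger amount. PDE5A is the cyclic GMP specific phosphodiesterase, known from smooth muscle and platelets as the target of sildenafil. Its first probe (A_73_103508) has the name of a sequence tag in the array files and was taken as PDE5A from its description there, a likeness to human PDE5A, without a match to a genome. It had a log2 signal from 1.15 to 2.84 at NC1 (median 2.15) and from -0.02 to 2.27 at C1 (median 1.87). At C2 it was 5.74, 7.35, 9.10, 9.25 and 6.29 in replicates 1 to 5. Every C2 array lay above every other array, with replicates 3 and 4 the highest and replicates 1 and 5 the lowest.

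The log2 difference of this PDE5A probe was 6.04 (SE 0.59, 95% interval 4.79 to 7.28) between C2 and C1, a 65.7-fold higher signal, with a limma adjusted p of 2.87e-07. It was the 24th largest rise among the 13865 valid probes. Against NC1 the difference was 5.57 (SE 0.59), 47.4-fold, with an adjusted p of 7.93e-07 and rank 20. The exact permutation p was 0.00433 in both. Against C1 the difference was 4.45 within the first scan day and 8.17 within the second.

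The second PDE5A probe (A_73_115082), which carries the gene's own name in the array files, exceeded background clearly on all 5 arrays of C2, on 2 of the 6 of NC1 and on 0 of the 6 of C1. At C2 its log2 signal was -2.40, -1.21, 0.43, 0.56 and -1.78, in the same order of arrays as for the first probe. Its values ranged from -6.91 to -4.59 at C1 and from -5.27 to -0.62 at NC1, where replicate 5 overlapped the C2 arrays. Taken against the lowest signal well above background on each C1 array, it was at least 9.25-fold higher at C2 than at C1, or 3.21 on the log2 scale. With a normexp background correction the log2 difference from C1 was 1.35 (adjusted p = 0.00295 in limma), below that bound. The bound thus holds for the main processing only. The measured log2 difference from C1 was 4.47, with an adjusted p of 9.96e-05 in limma over all probes. That call was lost within the first scan day (measured log2 difference 3.01, adjusted p = 0.0303). Against NC1 the measured log2 difference was 2.93 (SE 0.72, adjusted p = 0.00428), although 4 of the 6 NC1 arrays were not well above background. With dim values raised to the lowest signal well above background it was 1.78 (adjusted p = 0.0209), above the threshold. The call on the measured values was lost without NC1 replicate 1, 3, 4 or 6 (2.64 to 2.83) and without C2 replicate 3 or 4 (2.60 and 2.57), the adjusted p reaching 0.0157. Within the first scan day the difference to NC1 was 1.05 (adjusted p = 0.427).

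Markers of cells in which PDE5A is abundant were read beside it. Of the 7 smooth muscle and pericyte markers, 4 were measurable and 1 of them fell from C1 to C2, beside 12.8% of all valid probes. Their summed log2 signal ranged from 5.96 to 6.52 at C1, from 6.11 to 7.24 at NC1 and from 3.53 to 6.75 at C2. Of 3 platelet markers with a probe, 0 of the 1 measurable was called, and the summed signal was 1.52 to 2.39 at C1, 1.55 to 1.72 at NC1 and 1.55 to 2.31 at C2. PF4 and PPBP, which define platelets, were at background on all NC1 and C1 arrays and well above it on at least 1 C2 array. Their part in the rise of PDE5A was not tested.

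PDE9A, a phosphodiesterase with high affinity for cyclic GMP, rose less. Its log2 signal ranged from 0.23 to 1.20 at NC1 (median 0.48) and from -0.22 to 0.84 at C1 (median 0.08). At C2 it was 1.23, 2.51, 2.06, 2.71 and 1.26. Every C2 array lay above all others, but replicates 1 and 5 stood just above the highest NC1 array.

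The log2 difference of PDE9A was 1.73 (SE 0.29, 95% interval 1.12 to 2.34) between C2 and C1, a 3.32-fold higher signal, with a limma adjusted p of 0.000108. Against NC1 it was 1.38 (SE 0.29), 2.60-fold, with an adjusted p of 0.00098. The exact permutation p was 0.00433 in both. Within the first scan day the adjusted p rose to 0.0314 against C1 and to 0.0301 against NC1, at differences of 1.33 and 1.34, and within the second the differences were 2.27 and 1.56. With unequal spreads allowed, the adjusted p was 0.0156 and 0.0357.

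**Figure D2:**
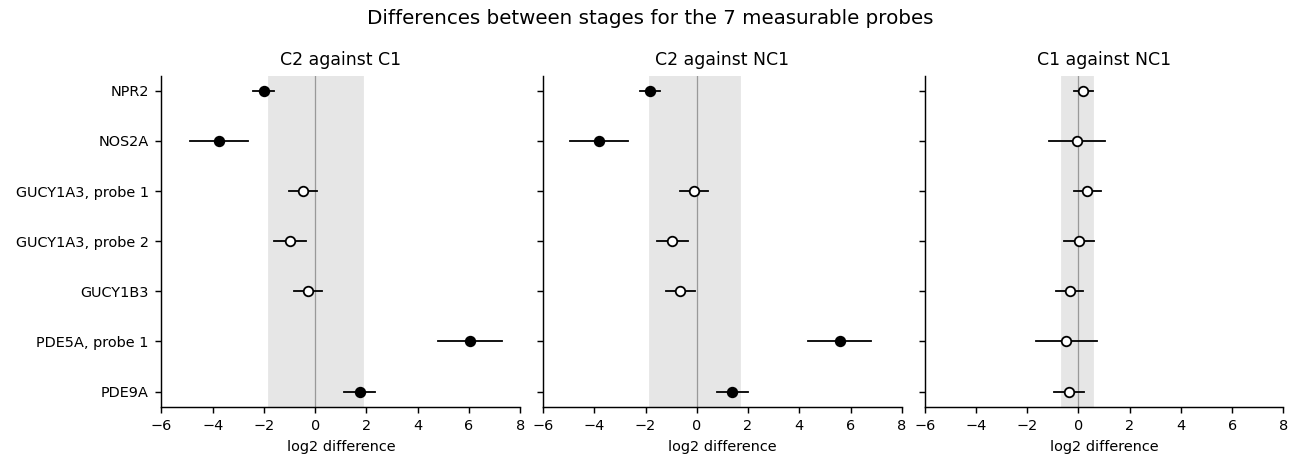
Log2 differences between stages of the 7 valid member probes, with 95% intervals from limma. Filled points have an adjusted p under 0.01, and the grey band holds the 5th to 95th percentile of all 13865 valid probes. PDE5A at 6.04, NOS2A at -3.75 and NPR2 at -2.02 lie outside the band in C2 against C1, and no point is filled in C1 against NC1.

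The kinases that act downstream of cyclic GMP were not measurable. PRKG1 and PRKG2 encode the cyclic GMP dependent protein kinases. One PRKG1 probe (A_73_108329), described as the beta isozyme, exceeded background clearly at C1 in 3 of 6 replicates and on no array of the other stages. The second PRKG1 probe (A_73_110849) and the PRKG2 probe were well above background on 0 of 17 arrays. No fold is given for these probes.

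Between NC1 and C1, the comparison of prophase I oocytes of absent or poor competence with competent ones, 0 of the 7 measurable member probes passed the threshold. The 7 log2 differences ran from -0.47 (95% interval -1.65 to 0.72) for the first PDE5A probe to 0.35 (-0.18 to 0.87) for the first GUCY1A3 probe. NPR2 differed by 0.19 (-0.19 to 0.58), NOS2A by -0.07 (-1.16 to 1.02) and PDE9A by -0.36 (-0.94 to 0.22). The limma adjusted p was 0.988 for NOS2A, 0.795 for NPR2 and 0.739 for PDE9A. The intervals of NOS2A and PDE5A still allow changes of more than 2-fold.

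The C2 arrays were spread more widely than those of the other stages, with a median SD over the valid probes of 0.50 against 0.33 at C1 and 0.34 at NC1. Replicates 3 and 4, from the second scan day, had the 2 highest C2 values of NOS2A and of both PDE5A probes, whereas replicates 1 and 5, from the first scan day, had the 2 lowest C2 values of NPPC, NPR2, NOS2A, PDE9A and both PDE5A probes. The second scan day exceeded the first at C2 by 2.72 for the first PDE5A probe, by 2.64 for NOS2A and by 0.72 for PDE9A. C2 replicate 2, of the first scan day, lay between the pairs for NOS2A and PDE5A. With 3 and 2 arrays the scan day and the animals cannot be told apart.

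There were 6 slides, all with 1 array of NC1 and 1 of C1, and 5 of them had 1 of C2 as well. Against the C1 array of its own slide, C2 was lower on 5 of 5 slides for NPR2 (-2.39 to -1.62) and for NOS2A (-6.01 to -2.17). NPR3 was also lower on 5 of 5 slides, with no size given because its C2 arrays were not well above background. It was higher on 5 of 5 slides for the first PDE5A probe (4.02 to 9.12) and for PDE9A (0.39 to 2.83). For these probes no C2 array overlapped the C1 arrays, so the same direction on every slide follows from that and adds no support. The size differed between slides.

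**Figure D3:**
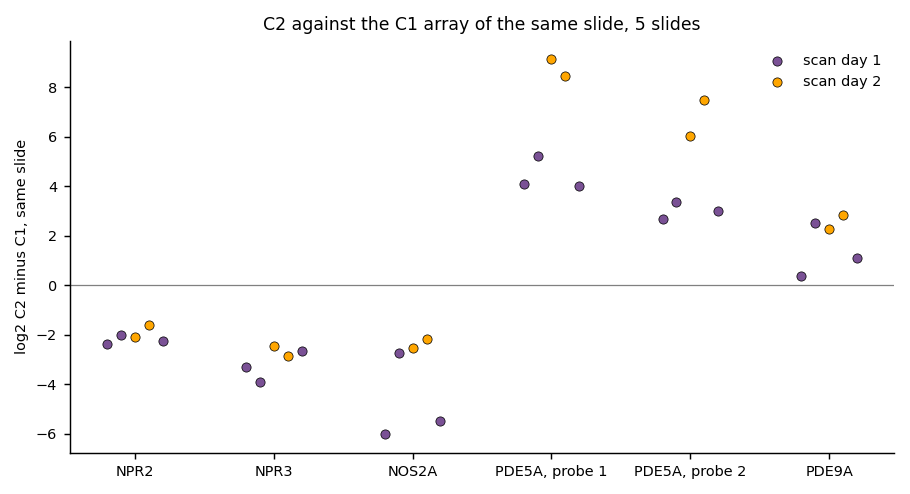
Log2 difference between the C2 array and the C1 array of the same slide, for 6 probes on 5 slides, coloured by scan day. Each point is 1 slide. NPR2 lies between -2.39 and -1.62, and the first PDE5A probe between 4.02 and 9.12 with both slides of the second scan day highest. NPR3 at C2 and the second PDE5A probe at C1 were not well above background, so their points are measured differences and not bounds.

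Genes with the profile nearest to each called member were found by the root-mean-square difference of mean-centred log2 values over the 17 arrays. For NPR2 they were CHAF1A (0.19), ZNF358 (0.25) and RNASEH2A (0.25). For NOS2A they were FANCI (0.36), CCDC3 (0.43) and NEDD9 (0.44). PDE5A was followed by GFPT2 (0.71), RBM24 (0.85) and FBP1 (0.86), and PDE9A by CDC40 (0.27), VPS35 (0.28) and UBE2H (0.29). GFPT2, which makes the hexosamine precursor of hyaluronan, differed by 6.66 between C2 and C1.

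The other genes of the cyclic GMP pathway were taken from a list of 70, of which 37 had a valid probe. From C1 to C2, 8 of the 37 rose, 8 fell and 21 did not pass the threshold, while 15.3% of all valid probes rose and 12.8% fell. The median log2 difference was 0.06 over the list and 0.02 over all valid probes. From NC1 to C2, 8 rose and 10 fell, beside 15.5% and 12.6% of all valid probes, with medians of 0.13 and 0.11. From NC1 to C1, 0 of the 37 passed the threshold in limma or in the one-factor test, and 5 had an unadjusted p under 0.05. Over all valid probes 1365 of 13865 had such a p in limma.

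Nitric oxide synthesis held 8 measurable genes besides NOS2A, of which 4 rose and 0 fell from C1 to C2, beside 15.3% and 12.8% of all valid probes. From NC1 to C2, 2 rose and 0 fell, beside 15.5% and 12.6%. DDAH1 and DDAH2, which break down the natural inhibitor of nitric oxide synthases, rose from C1 by 0.76 (adjusted p = 0.00229) and 1.60 on the log2 scale. From NC1 DDAH2 rose by 1.21, and DDAH1 differed by 0.47 (adjusted p = 0.0441). ARG2, an arginase that competes for arginine, rose by 2.55 from C1, but differed from NC1 by 0.47 (adjusted p = 0.385). ASL, which makes arginine, rose by 1.03 from C1 and by 1.02 from NC1. The endothelial synthase NOS3 differed by 1.55 (SE 0.47, adjusted p = 0.0135 in limma) from C1 and by 1.01 (adjusted p = 0.0977) from NC1, and did not pass the threshold. The summed signal of 8 endothelial markers was 0.73 to 1.05 at C1, 0.86 to 1.73 at NC1 and 1.57 to 3.54 at C2, with CDH5 and EMCN at background on every array. Of its 6 measurable genes, KDR rose from C1 (3.58) and the other 5 were not called, with differences from -0.78 for TEK to 0.49 for VWF. From NC1, KDR rose (3.49) and TEK fell (-1.61). The part of these markers in the values above was not tested.

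Tetrahydrobiopterin is the cofactor of nitric oxide synthases. GCH1, the first enzyme of its synthesis, rose by 1.51 from C1 to C2 and differed by 0.12 from NC1 (adjusted p = 0.836). Its feedback regulator GCHFR rose by 1.11 from C1 and by 1.77 from NC1. SPR, which completes the synthesis, fell (-1.45 from C1, -1.36 from NC1). PTS rose from NC1 by 0.78.

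Of 9 other guanylate cyclases and activators listed, 8 had a probe and 2 were measurable. These 2 fell from C1 and from NC1, beside 12.8% and 12.6% of all valid probes. GUCY2C, the receptor for guanylin peptides in the gut, fell (-1.69 from C1, -1.41 from NC1). GUCA1A, an activator of the cyclases of the retina, fell further (-3.36 and -2.81). NPR1, the receptor of atrial natriuretic peptide, differed by -0.32 from both stages (adjusted p = 0.149 and 0.152).

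The remaining measurable phosphodiesterases were mixed. PDE2A, which cyclic GMP itself stimulates, fell (-2.20 from C1, -2.54 from NC1), opposite to PDE5A and PDE9A. Of the subunits of the phosphodiesterase of photoreceptors, PDE6G rose (0.87 and 0.99), PDE6H fell (-1.08 and -0.86), and PDE6D rose from NC1 by 0.79. Among the 8 measurable genes for cyclic AMP or cyclic GMP inhibited phosphodiesterases, PDE8A fell (-1.18 and -0.99) and PDE7B fell from NC1 (-1.40). PDE3A, which cyclic GMP inhibits, differed by 0.50 (SE 0.46, adjusted p = 0.402) between C2 and C1. PDE8B, PDE6C and PDE3B did not pass the filter. At NC1, C1 and C2 the mean log2 signal of PDE8B was 0.09, 0.19 and -3.90, well above background on 6, 6 and 3 arrays. For PDE6C it was -0.01, -3.27 and -4.50, on 6, 4 and 1 arrays. PDE3B went the other way, at -4.94, -4.83 and -2.69, on 0, 3 and 3 arrays.

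Export, nucleotide supply and effectors held the last of the called genes. ABCC5, a transporter that exports cyclic GMP, fell (-1.11 from C1, -1.32 from NC1). ABCC4, the other exporter on the list, did not pass the filter. The mean log2 signal of its brightest probe was -1.45 at NC1, -4.96 at C1 and -5.18 at C2, well above background on 5, 1 and 0 arrays. IMPDH2, which supplies guanine nucleotides, fell (-1.55 and -1.40), although another valid probe of it differed in call or direction. IMPDH1 fell from NC1 (-0.88), and NME1, a nucleoside diphosphate kinase, rose from NC1 by 1.27. VASP, a substrate of the cyclic GMP dependent kinases, rose by 1.89 and 1.59.

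A second list held 31 further genes of meiotic arrest, 24 of them measurable. From C1 to C2, 7 rose, 4 fell and 13 did not pass the threshold, beside 15.3% and 12.8% of all valid probes that rose and fell. The median log2 difference was 0.45, beside 0.02 over all valid probes. From NC1 to C2, 7 rose and 3 fell, beside 15.5% and 12.6%. From NC1 to C1, 0 of 24 passed and 1 had an unadjusted p under 0.05 in limma, beside 1365 of the 13865 valid probes. GJA4, a connexin of the gap junctions between oocyte and cumulus, fell (-0.87 from C1, -0.90 from NC1). GJA1, the main connexin between cumulus cells, differed by -0.56 (SE 0.38, adjusted p = 0.26) between C2 and C1.

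Of 6 measurable receptors that act on NPR2 or NPPC, 2 rose, 1 fell and 3 were not called from C1, and likewise from NC1. Over all valid probes 15.3% rose and 12.8% fell from C1, and 15.5% and 12.6% from NC1. The 3 not called were ESR1, BMPR1A and TGFBR1 (0.56, 0.63 and 0.10 from C1). ESR2, the beta oestrogen receptor, fell (-2.93 from C1, -3.49 from NC1). BMPR2 rose by 1.50 and 1.24 and BMPR1B by 1.56 and 1.39, both receptors for oocyte growth factors. In another class of the list, the route of luteinizing hormone and the EGF receptor, 2 genes were measurable. EGFR fell from C1 (-1.22) and differed from NC1 by -1.01 (adjusted p = 0.0117), and its ligand BTC fell (-4.57 and -4.44). AREG, another EGFR ligand, was not measurable by the filter and lay higher at C2. Its probe passed background clearly in 1 of 6 replicates each of NC1 and C1 and in 5 of 5 of C2, and its mean log2 signal was -4.36 (SD 0.93), -5.77 (SD 0.77) and 1.96 (SD 2.65).

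Of 10 measurable genes for phosphatases that can remove the activating phosphates of NPR2, 5 rose and 0 fell from C1, beside 15.3% and 12.8% of all valid probes. From NC1, 5 rose and 0 fell, beside 15.5% and 12.6%. PPP1CB (1.02 and 0.86), PPP2R5E (0.90 and 1.04) and PPP1R12A (0.86 and 0.82) rose from both stages. PPP2CB (1.08) and PPP2R5A (0.89) rose from C1, and PPP1CA (1.18) and PPP1CC (0.69) from NC1. Another valid probe of PPP2R5C differed in call or direction from the brightest one, at 0.10.

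**Figure D4:**
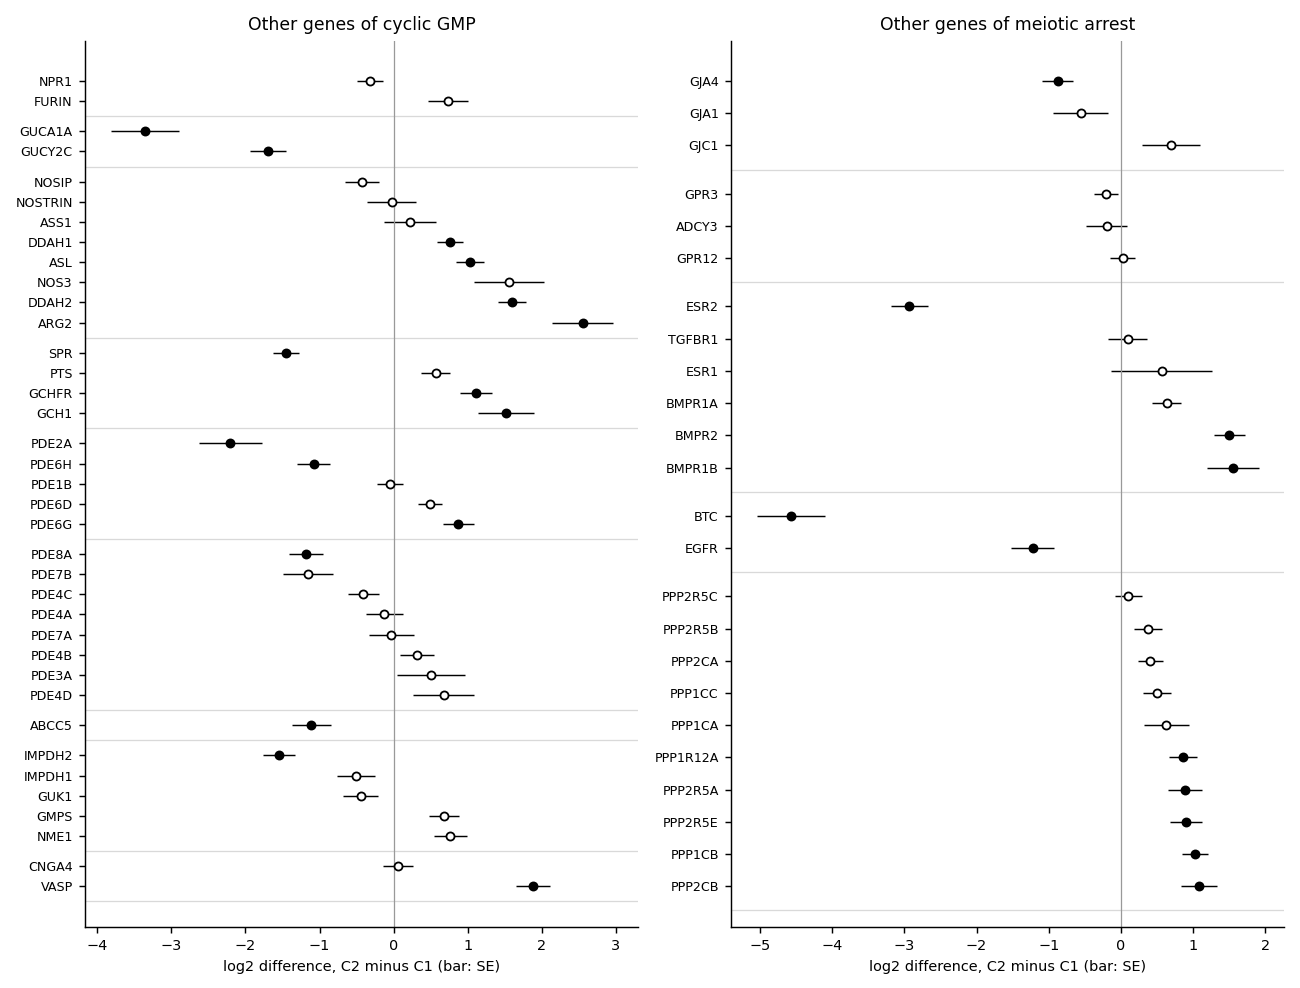
Log2 difference between C2 and C1 (points, with SE) of the 37 measurable pathway genes and the 24 measurable genes of meiotic arrest, grouped by role between the grey lines. Filled points have an adjusted p under 0.01. BTC at -4.57 is the lowest of the arrest list, and ARG2 at 2.55 the highest of the pathway list.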

How the data were processed

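Total RNA of cumulus cells was labelled with Cy3 and hybridised to 1 array per animal. The authors deposited linear intensity values per spot, background-subtracted and detrended by Agilent Feature Extraction 10.5.1.1 and not scaled from array to array. A second file from the authors holds log2 values, set to the median of each array in GeneSpring, and served as an alternative. Log2 intensities were averaged over the spots of a probe, without non-uniform or outlier spots, and each array's median was subtracted. No spot was saturated. A probe was present where at least 50% of its spots were well above background and uniform.

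The 3 stages, grouped by the labels, were fitted together in limma 3.58.1 (R 4.3.3) with lmFit and eBayes. P-values were adjusted by Benjamini-Hochberg across the 13865 valid probes and called under 0.01. limma stands in for the one-factor test of the study's methods, which is an alternative. On simulated data, with 200 of 13865 probes changed, 28% of those changed by 1 log2 unit and 85% of those changed by 2 were called in C2 against C1. In the data 28.1% of the valid probes were called there, and C2 was more widely spread. The simulation gave each probe the same spread at all stages, so these shares are not the power of the reported test. Exact permutation tests used scipy 1.17.1. Each replicate came from its own animal per the study's methods, and p-values measure the spread between these arrays. Same-numbered replicates are different animals and were not paired. Distances between arrays were not set against repeat hybridisations of 1 sample, so every array was counted, and averaging the close C2 replicates (1 with 5, 3 with 4) was an alternative.

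The members, the gene lists and the tests were chosen with earlier results of these data known. All members are named, as are list genes past the threshold in any comparison and the 3 genes nearest in profile to each member called in C2 against C1. List genes that missed the threshold or the filter and marker genes that are named were chosen after their values were seen. A gene with several valid probes is given by its brightest. Gene names came from the array files and from RefSeq names of assembly ARS-UCD2.0, and no coordinates are given, since no genome of the array's build was used. Markers were described by counts and summed signals. From C1 to C2, 2 of 6 measurable leukocyte markers rose, 1 of 6 endothelial markers rose, 1 of 2 red blood cell markers fell, and 0 of 3 oocyte and 0 of 3 theca markers were called. Over all valid probes 15.3% rose and 12.8% fell. From NC1 to C2, 3 of 3 oocyte markers fell and 0 of 3 theca markers were called, while 12.6% of all valid probes fell. Alternatives covered scaling, background correction, filters, weights, blocks, thresholds and leaving out each array. Scan days, stage weights, unequal spreads and dim values at their bound were added after seeing the data.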

Additional observations from a re-analysis of the deposited data

Results flagged for a closer look

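Of 39 sets of arrays, 1 probe at 1 stage each, 1 had an array far from the others. For the PRKG1 probe A_73_108329, NC1 replicate 2 had a log2 signal of -4.95 where the stage median was -4.36, and the gap to the nearest array was 0.832 of the whole range. The probe was not well above background on any NC1 array. By chance about 1 in 20 such sets shows a gap of this kind.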

How the results depend on the processing

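For NPR2, NPR3, NOS2A, PDE9A and the first PDE5A probe, 337 of 344 recomputed differences of C2 from C1 or NC1 kept their direction and their side of the threshold, 7 lost the threshold and 0 reversed. The 7 were those of NOS2A and PDE9A with unequal spreads, of PDE9A on the first scan day, and of NPR3 from C1 with normexp, all given in the report. Only called values were counted. Some alternatives cannot move a difference, such as leaving out an array of the stage not compared, stage weights, the unmoderated test or unequal spreads. The looser threshold of 0.05 cannot lose a call. The count is therefore not a measure of robustness. The second PDE5A probe lost its call against NC1 under 16 of 32 alternatives and against C1 on the first scan day alone. Averaging the close C2 replicates left 4 member probes called in C2 against C1 and 4 in C2 against NC1. Of the 13865 valid probes, 2989 and 2923 were called there, beside 3892 and 3893 in the main fit. With unequal spreads, 2 member probes were called in C2 against C1 and 2 in C2 against NC1, and 7 and 5 pathway genes were. Calls over all valid probes fell to 1565 and 1406. On the first scan day alone the pathway genes called were 8 and 5, and on the second 11 were called in C2 against NC1. Over all valid probes the calls were 1361 and 1397 on the first day, and 3475 in C2 against NC1 on the second. From NC1 to C1 the pathway count was 2 with array weights, 2 with stage weights, 1 at an adjusted p under 0.05, and 0 to 1 when leaving out each array, being 1 without NC1 replicate 3 or C2 replicate 2. Over all valid probes the calls were 239 with array weights, 58 with stage weights and 47 at that threshold, beside 8 in the main fit. They were 13 without NC1 replicate 3 and 19 without C2 replicate 2. The causes were not tested. GUCY1A3 probe 2 moved both ways, the smaller values being those in the report with normexp and on the second scan day. The 75th percentile scaling (-1.11 and -1.10) and array weights (-1.27 and -1.20) passed the threshold against both stages, and a scan day covariate (-0.93) against C1. GUCY1B3 passed against NC1 with 75th percentile scaling (-0.79) and quantile normalization (-0.79). That scaling moved the median difference of all valid probes between C2 and C1 from 0.02 to -0.11.

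Differences close to 0 changed sign. Between C1 and NC1, NOS2A was 0.22 with normexp, 0.18 on the second scan day and -0.18 to 0.068 when leaving out each array. GUCY1A3 probe 2 was -0.078 with normexp, -0.071 on the second scan day and -0.046 to 0.15 when leaving out each array, and PDE9A was 0.0052 on the first scan day. Between C2 and NC1, GUCY1A3 probe 1 was 0.026 with close C2 arrays averaged and -0.34 to 0.011 when leaving out each array.

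The replicate numbers mark different animals, and deviations of same-numbered arrays correlated between -0.32 and 0.25. With the replicate number as a block, 4 member probes and 16 pathway genes were called in C2 against C1, 4 and 15 in C2 against NC1, and 0 and 0 in C1 against NC1. Of the 13865 valid probes, 3202, 3088 and 0 were called in these comparisons. Under the block the second PDE5A probe lost its call against NC1 (2.91, adjusted p = 0.0132 in limma), and no other call of a member changed. Weak signal limits NPPC, NPR3, PRKG1, PRKG2 and the second PDE5A probe.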
